A study of Mus musculus with 8 samples.

Results

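Imprinted genes are genes that are read mainly from the copy inherited from 1 parent, and 39 of them were followed here in mouse germ cells with a conditional knockout (CKO) of the chromatin remodelling gene Snf5. The members were taken from a written list of known imprinted genes and were found in the tables by gene symbol; the rule uses no measured value, but the list was written with earlier results of these data known. All 39 were listed in both tables, among 23694 named genes (or merged gene names) in the female table and 23409 in the male table. Of them 20 are classed here as paternally expressed and 17 as maternally expressed. The other 2, Grb10 and Gnas, are classed as expressed from different copies in different isoforms or tissues. A class need not hold in every tissue or isoform. RNA-Seq was carried out on E15.5 germ cells sorted by Oct4-EGFP, a transgene in which the Oct4 promoter drives a green fluorescent protein, and the question was how the loss of Snf5 (Smarcb1), a core subunit of the SWI/SNF complex, alters the transcripts of fetal germ cells of each sex. There were 8 libraries, 2 each for control and Snf5 CKO germ cells of females and of males.

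Snf5 CKO embryos carried a floxed and a null allele (Snf5 fx/Δ) together with TNAP-Cre, in which Cre is expressed from the Alpl gene of tissue nonspecific alkaline phosphatase and deletes the floxed allele while primordial germ cells (PGCs) develop. Control embryos had the other genotypes of the cross and their cells were mixed: Snf5 fx/+ and Snf5 fx/Δ, both without Cre, and Snf5 fx/+ with TNAP-Cre, so part of the control cells also had only 1 working allele. Embryos of all groups carried Oct4-EGFP. The sample labels give C57BL/6 as the strain background, whereas the methods of the study describe a mixed background. Recombination by TNAP-Cre was incomplete and varied among animals. The methods of the study describe the 2 libraries of each group as biological duplicates, and most libraries pooled the germ cells of several embryos. The exception is male Snf5 CKO, for which each entry of the study names 1 mouse. The p-values rest on the spread between these libraries and, through the limma model used below, also on the spread of all tested genes.

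Parental imprints are DNA methylation marks set in the germ line: maternal marks are written in growing oocytes after birth, and paternal marks in fetal prospermatogonia. They are erased in PGCs before the stage studied here, and a gene that is read from 1 copy in the body can then be read from both or neither. Imprinted genes lie in clusters under a shared control region, and many act on fetal growth and metabolism. FPKM, the unit of the tables (fragments scaled to the length of the transcript and the number of mapped fragments), does not separate the parental copies. Thus "paternally expressed" and "maternally expressed" below are assigned classes, which need not hold in every tissue, and not measurements. In sorted bulk cells, fewer cells of a kind and less RNA per cell cannot be told apart.

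The promoters of 3 of the genes the results turn on are shown because these genes changed in different ways: Plagl1 and Mest were higher in female Snf5 CKO germ cells, and Phlda2 was higher in females and lower in males. Each window runs from 250 bases before to 50 bases after a RefSeq transcript start (GRCm38.p6), and capitals mark the hexamer TGCCGC, or its reverse complement GCGGCA, which is recognised when methylated by ZFP57, a protein that holds imprints in the early embryo.
Plagl1, chr10:13090582-13090881, plus strand: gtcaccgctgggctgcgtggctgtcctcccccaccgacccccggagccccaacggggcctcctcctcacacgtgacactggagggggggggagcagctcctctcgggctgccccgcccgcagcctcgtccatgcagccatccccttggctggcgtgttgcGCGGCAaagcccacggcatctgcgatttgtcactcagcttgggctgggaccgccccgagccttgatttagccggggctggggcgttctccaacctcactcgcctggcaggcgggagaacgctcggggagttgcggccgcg
Mest, chr6:30737800-30738099, plus strand: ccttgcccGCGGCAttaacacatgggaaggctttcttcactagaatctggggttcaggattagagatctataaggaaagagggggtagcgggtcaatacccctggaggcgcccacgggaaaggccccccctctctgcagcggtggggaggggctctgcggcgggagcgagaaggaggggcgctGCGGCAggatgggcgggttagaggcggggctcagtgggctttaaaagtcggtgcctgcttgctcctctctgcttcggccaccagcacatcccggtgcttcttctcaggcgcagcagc
Phlda2, chr7:143502475-143502774, minus strand: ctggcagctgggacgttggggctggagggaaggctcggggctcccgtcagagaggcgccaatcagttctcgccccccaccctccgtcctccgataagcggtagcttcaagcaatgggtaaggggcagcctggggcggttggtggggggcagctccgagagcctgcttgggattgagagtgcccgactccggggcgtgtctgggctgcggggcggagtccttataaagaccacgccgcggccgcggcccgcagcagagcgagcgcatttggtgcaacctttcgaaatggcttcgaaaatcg

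The Plagl1 window held the hexamer 1 time, the Mest window shown 2 times and the Phlda2 window 0 times, with 26, 17 and 26 CpG dinucleotides. A Mest window further upstream (chr6:30733256-30733555) held it 0 times, as did the windows of Peg3 and Dlk1, which are not shown. Promoter windows were on hand for 33 of the 39 genes. A window with the hexamer on either strand was found for 9 of the 33 (27.3%) and for 13.1% of all 27025 genes with a window. By class it was found for 6 of 17 paternally expressed genes (35.3%) and 2 of 14 maternally expressed genes (14.3%). The median number of CpG dinucleotides was 14.5 in the windows of imprinted genes and 7.0 in all windows. These are counts of letters in windows of 300 bases; binding and methylation were not measured, and the control regions of most clusters lie outside these windows.

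Several imprinted transcripts are the precursors of microRNAs, and those of 3 members with a changed transcript are shown with the seed, bases 2 to 8, in capitals. The FPKM of the host says nothing of the level of the mature microRNA, which this kind of library does not hold.
miR-675-5p (H19, chr7:142577112-142577133, minus strand): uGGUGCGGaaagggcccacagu
miR-675-3p (H19, chr7:142577078-142577099, minus strand): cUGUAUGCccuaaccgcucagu
miR-335-5p (Mest, chr6:30741314-30741336, plus strand): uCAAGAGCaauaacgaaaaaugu
miR-770-5p (Meg3, chr12:109563710-109563731, plus strand): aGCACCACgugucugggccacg
No seed is shared among these 4. In the tables H19 is merged with Mir675 in females and stands alone in males, and Meg3 is merged with Mir770 in both.

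Each sex was quantified in a run of its own, so tests were made within a sex and levels of the sexes are only set side by side. Genes whose mean over the 4 libraries of a sex reached 1 FPKM were tested with limma on log2(FPKM + 1), and called changed at a log2 fold change of at least 1 in size and a Benjamini-Hochberg adjusted p under 0.05; fold changes on this scale understate those of low genes. The target, Smarcb1, was at 23.4 and 22.3 FPKM in female controls against 4.24 and 2.47 in Snf5 CKO, and at 141 and 167 against 8.73 and 10.1 in males. A large part of the transcriptome differed between the genotypes: 38.9% of 11529 tested genes were called in females and 31.8% of 12279 in males. The germ cell markers Ddx4, Dazl, Pou5f1, Dppa3, Dnd1 and Mael summed to 1858 and 1901 FPKM in female controls against 2925 and 3118 in Snf5 CKO, and to 4876 and 5259 against 4441 and 5005 in males. Among them Pou5f1, Dnd1 and Dppa3 were called higher and Mael lower in females, and Dnd1 and Mael lower in males. All 9 Sertoli markers were called higher in male Snf5 CKO, where they summed to 642 and 945 FPKM against 150.0 and 114.0 in controls (Amh was at 17.3 and 16.5 in controls and at 69.7 and 120.0 in Snf5 CKO), whereas 5 Leydig markers summed to 85.7 and 58.2 FPKM in male controls and to 19.2 and 15.1 in Snf5 CKO, and 3 of the 5 were called lower. In females, 7 of 8 pre-granulosa markers were tested and 4 called higher, with sums of 8.08 and 11.4 FPKM in controls and of 33.1 and 31.5 in Snf5 CKO, and Foxl2 went from 0.328 and 1.13 to 1.67 and 2.07. Stromal markers summed to 12.4 and 6.13 FPKM in female controls against 4.13 and 5.08 in Snf5 CKO, and to 20.8 and 10.6 against 4.16 and 3.02 in males. Blood and endothelial markers summed to between 13 and 59.5 FPKM in the 8 libraries and differed in direction. Among them Pecam1 was called higher in females (4.10 and 3.65 against 24.3 and 19.7 FPKM, log2 fold change 2.23) and overlapped in males. Cdh5 and Kdr, under 1 FPKM in every library and not tested, lay below both controls in each sex. The sums of the marker lists named for cells of the other sex were higher in Snf5 CKO as well, though not every marker was. Which cells these transcripts came from was not tested. In females Sertoli markers summed to 5.82 and 8.64 FPKM in controls against 19.6 and 17.7. The 4 tested there were Gata4, Wt1, Nr5a1 and Aard, and of these only Aard was called higher. Amh was at 0.123 and 0.112 FPKM against 0.074 and 0.0125, and Sox9 overlapped. The other Sertoli markers, Dhh, Cst9 and Ptgds, were below 1 FPKM in every female library. Female Leydig markers summed to 4.74 and 4.89 FPKM against 12 and 11.8. Most of these sums was the row that Insl3 shares with Jak3 in both sexes (3.13 and 3.99 against 8.52 and 10.1). In males pre-granulosa markers summed to 15.1 and 14.9 FPKM in controls against 33.0 and 36.6 in Snf5 CKO. Most of both Snf5 CKO sums was Amhr2, and without it the sums were not higher in Snf5 CKO. Of the 4 tested there, 2 were called higher (Amhr2 and Kitl, log2 fold changes 2.54 and 1.23) and 1 lower (Rspo1, -1.20), and Fst overlapped. Among those not tested, Irx3 and Foxl2 lay above both male controls and Wnt4 and Lhx9 below both. No marker listed in a table was at 0 in all libraries of that sex, and the part of these other cells in the results below was not tested.

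The 39 genes together held 495 and 502 FPKM in female controls and 786 and 739 in female Snf5 CKO. In males they held 400.0 and 364 FPKM in controls and 714 and 630 in Snf5 CKO. Both sums were higher in Snf5 CKO without overlap. Rescaled to 1000000 FPKM over all named genes, the female sums stayed apart (762 and 710.0 against 1296 and 1003), whereas in males Snf5 CKO 2 at 627 came level with control 1 at 628 (control 2 was at 460.0 and Snf5 CKO 1 at 1092). Paternally expressed genes summed to 97.8 and 102 FPKM in female controls and to 299 and 274 in female Snf5 CKO, while maternally expressed genes summed to 248 and 273 against 314 and 330. In males the paternally expressed genes summed to 179 and 156 FPKM in controls and to 342 and 244 in Snf5 CKO, and the maternally expressed genes to 189 and 188 against 232 and 267. The median member was lower in Snf5 CKO than in the controls, at 2.83 and 2.56 against 3.30 and 3.42 FPKM in females and at 2.58 and 2.11 against 4.90 and 4.97 in males.

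**Figure D1:**
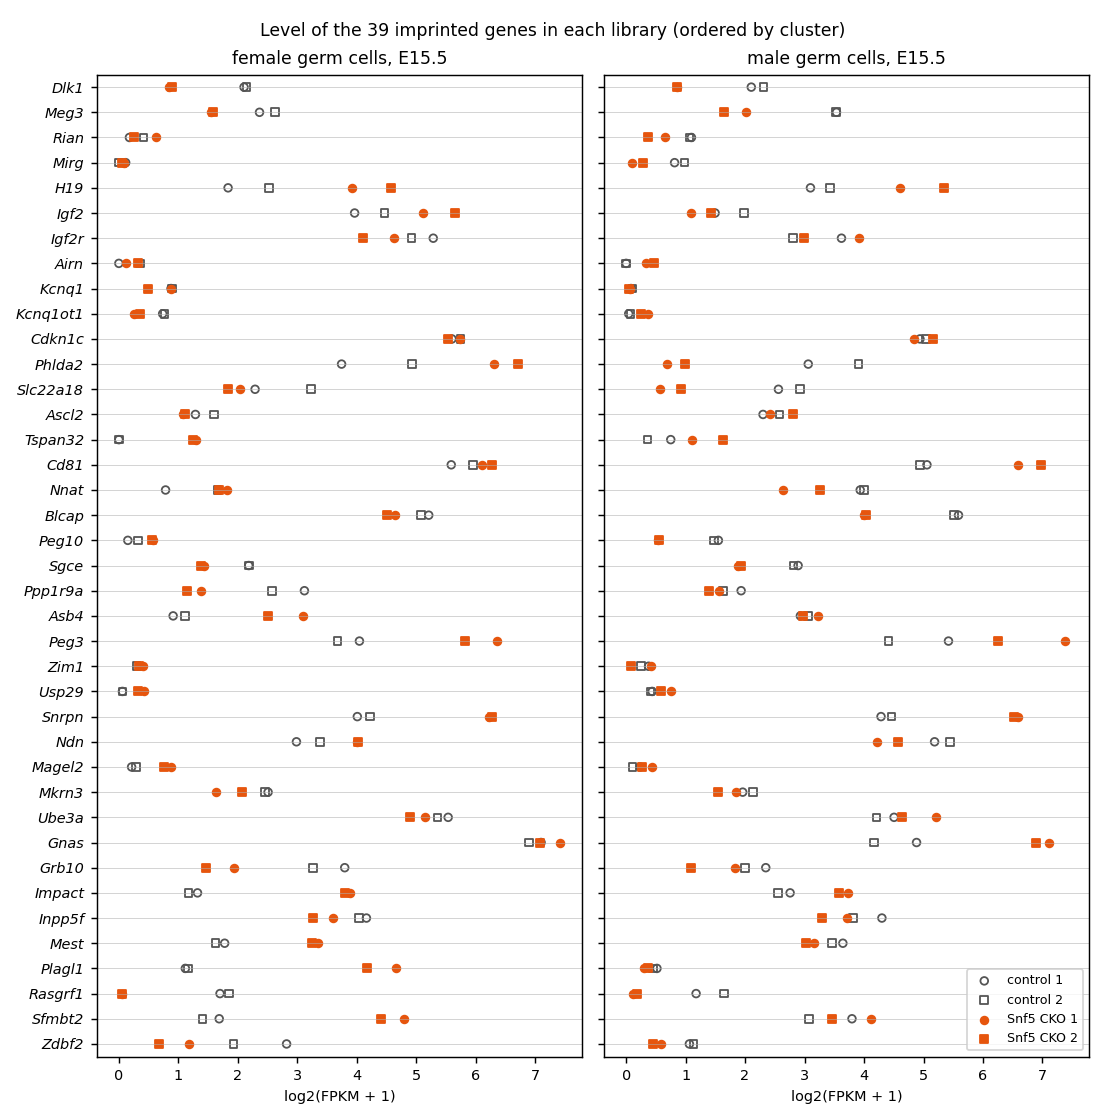
Level of the 39 imprinted genes in each library, as log2(FPKM + 1) on the x axis, with 1 row for each gene, ordered by cluster, and female (left) and male (right) germ cells in separate panels. Open grey symbols are the 2 controls and filled orange symbols the 2 Snf5 CKO libraries. By mean, Gnas is the most abundant member in female controls and in both Snf5 CKO groups, and the genes near the left edge, such as Mirg and Airn, are below 1 FPKM in every library.

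In order of FPKM, which is scaled to transcript length, Gnas, which encodes the alpha subunit of the stimulatory G protein, came first in female controls at 127 ± 12.9 FPKM (SD, n = 2). It was followed by Cd81 at 54.1 ± 9.86, Cdkn1c with libraries at 47.5 and 52.5, Ube3a at 42.6 ± 3.90 and Blcap at 34.4 ± 2.24. Libraries of Cd81 and Cdkn1c overlapped, as did those of Blcap and the next gene, Igf2r. In male controls the order was Blcap at 45.9 ± 1.64, Ndn at 38.9 ± 4.98, Peg3 at 31.0 ± 15.2, Cd81 at 30.9 ± 1.93 and Cdkn1c at 30.9 ± 1.57. From Ndn to Cdkn1c each gene overlapped the next. Gnas came next there at 22.7 ± 8.12 FPKM. The 8 genes tested in neither sex were Rian, Mirg, Magel2, Usp29, Zim1, Airn, Kcnq1 and Kcnq1ot1, and they had at most 1.14 FPKM in any library. Gene positions below are those of RefSeq on GRCm38.p6, the sequence of the mm10 build to which the reads were mapped.

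In females, 29 of the 39 genes passed the filter and 15 were called changed, 10 higher and 5 lower in Snf5 CKO, where 17.3% of all tested genes were called higher and 21.6% lower. The median log2 fold change of the 29 was -0.04, against -0.13 over all tested genes, with a range from -1.83 to 3.27; it was 1.0 over the genes of at least 5 FPKM and 0.13 with median-of-ratios rescaling. An adjusted p under 0.05, at any size of change, was reached by 22 of the 29 genes and by 61.6% of all tested genes. The Snf5 CKO libraries lay on 1 side of both controls for 27 of the 29, and for 81.6% of all tested genes. The higher genes were Plagl1, Sfmbt2, Impact, Peg3, Snrpn, Mest and Igf2 of the paternally expressed class and Phlda2, H19 and Asb4 of the maternally expressed class. The lower genes were Dlk1, Rasgrf1 and Zdbf2 (paternally expressed), Ppp1r9a (maternally expressed) and Grb10.

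Plagl1 (chr10:13090832-13131694), a zinc finger transcription factor that restrains proliferation, was at 1.17 and 1.24 FPKM in female controls and at 24.2 and 17.0 in female Snf5 CKO (log2 fold change 3.27, SE 0.22, adjusted p = 0.00011 by limma). The row also holds Hymai, a non-coding RNA of the same locus. In males, where the row holds Plagl1 without Hymai, it was at 0.432 and 0.369 FPKM in controls and at 0.231 and 0.291 in Snf5 CKO, and was not tested. Sfmbt2 (chr2:10370440-10595253), a relative of Polycomb proteins, was at 2.22 and 1.65 FPKM in female controls and at 26.8 and 20.2 in Snf5 CKO (log2 fold change 3.06, SE 0.22, adjusted p = 0.00012). Male controls were at 12.9 and 7.45 and male Snf5 CKO at 16.4 and 9.99 FPKM, which overlapped (log2 fold change 0.35, adjusted p = 0.46). Impact, an inhibitor of the translational stress kinase GCN2, was at 1.5 and 1.25 FPKM in female controls and at 13.8 and 12.9 in Snf5 CKO (log2 fold change 2.6, SE 0.19, adjusted p = 0.00012). In males Impact went from 5.76 and 4.88 to 12.2 and 10.9 FPKM, also without overlap, and at a log2 fold change of 0.99 (SE 0.19, adjusted p = 0.013) it stayed just under the size needed for a call. That size was reached without control 1 (1.09), without Snf5 CKO 2 (1.07), with 0.1 FPKM added in place of 1 (1.11) and with median-of-ratios rescaling (1.14).

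Peg3 and Snrpn were higher in both sexes. Peg3 (chr7:6703892-6730462), a zinc finger protein that acts on growth and maternal behaviour, was at 15.5 and 11.8 FPKM in female controls and at 81.4 and 55.3 in Snf5 CKO (log2 fold change 2.23, SE 0.24, adjusted p = 0.0004 by limma). In males it went from 41.8 and 20.3 FPKM to 166 and 75.5 (log2 fold change 1.91, SE 0.50, adjusted p = 0.031). The library numbered 1 was the higher one in both groups of each sex. The groups did not overlap in either sex, but the male call was lost when genes of any level were tested (adjusted p = 0.17). Snrpn, which encodes the spliceosomal protein SmN and shares its row with Snurf, was at 15.1 and 17.6 FPKM in female controls and 73.8 and 76.0 in Snf5 CKO (log2 fold change 2.13, SE 0.17, adjusted p = 0.00015). The male values were close to these, 18.5 and 21.0 in controls and 94.9 and 90.4 in Snf5 CKO (log2 fold change 2.18, SE 0.17, adjusted p = 0.0022). Libraries of a group differed by less than the groups did in both sexes.

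Mest (chr6:30733506-30748466), which encodes a hydrolase of the endoplasmic reticulum, was at 2.43 and 2.08 FPKM in female controls and at 9.16 and 8.49 in Snf5 CKO (log2 fold change 1.59, SE 0.19, adjusted p = 0.00058 by limma). In males it was at 11.5 and 9.98 in controls and at 7.96 and 7.15 in Snf5 CKO (log2 fold change -0.46, adjusted p = 0.11). The Snf5 CKO libraries of Mest lay above both controls in females and below both in males. Igf2 (chr7:142650768-142666816), a fetal growth factor, was at 14.6 and 21.1 FPKM in female controls and at 33.5 and 49.4 in Snf5 CKO (log2 fold change 1.17, SE 0.26, adjusted p = 0.0073). This call fell below the size limit without female control 1 (log2 fold change 0.92) and without female Snf5 CKO 2 (0.89), and was lost when genes of any level were tested (adjusted p = 0.12). In males Igf2 was low in all libraries, 1.82 and 2.95 FPKM in controls and 1.13 and 1.68 in Snf5 CKO (log2 fold change -0.48, adjusted p = 0.17).

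H19, the non-coding RNA that lies next to Igf2 and hosts miR-675, was higher in both sexes. Its values were 2.57 and 4.77 FPKM in female controls against 14.2 and 22.8 in Snf5 CKO (log2 fold change 2.07, SE 0.31, adjusted p = 0.0015 by limma). In males they were 7.57 and 9.76 against 23.4 and 39.6 (log2 fold change 1.71, SE 0.30, adjusted p = 0.01). Testing genes of any level ended both calls (adjusted p = 0.072 in females and 0.075 in males). Thus H19 and Igf2, which are read from opposite copies in the body, were both higher in female Snf5 CKO germ cells, and H19 but not Igf2 passed the test in males.

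Asb4, a substrate adaptor of a ubiquitin ligase, was at 0.882 and 1.16 FPKM in female controls and at 7.51 and 4.71 in Snf5 CKO (log2 fold change 1.79, SE 0.25, adjusted p = 0.001 by limma), whereas male values overlapped, 6.62 and 7.30 in controls and 8.35 and 6.84 in Snf5 CKO. Ppp1r9a, a gene of the same cluster that encodes the actin-binding scaffold neurabin, went the other way in females, from 7.69 and 4.96 FPKM to 1.59 and 1.21 (log2 fold change -1.59, SE 0.24, adjusted p = 0.0016). In males Ppp1r9a was at 2.82 and 2.09 in controls and at 1.94 and 1.64 in Snf5 CKO (log2 fold change -0.30, adjusted p = 0.26). Both female calls were lost with genes of any level in the test (adjusted p = 0.054 for Asb4 and 0.061 for Ppp1r9a). Sgce, which encodes epsilon-sarcoglycan, and Peg10, a gene derived from a retrotransposon, start head to head in the same cluster. Sgce was at 3.54 and 3.56 FPKM in female controls and 1.71 and 1.61 in Snf5 CKO (log2 fold change -0.77, adjusted p = 0.0098), and at 6.42 and 6.03 against 2.70 and 2.83 in males (log2 fold change -0.94, adjusted p = 0.013). Peg10 was at 0.11 and 0.245 FPKM in female controls and 0.492 and 0.465 in Snf5 CKO, the opposite order to that in males, and was not tested there. It went from 1.93 and 1.78 FPKM in male controls to 0.452 and 0.471 in Snf5 CKO (log2 fold change -0.96, adjusted p = 0.0082). These 3 differences passed the adjusted p but not the size needed for a call, which they reached with 0.1 FPKM added in place of 1 (-1.05 and -1.14 for Sgce in females and males, -1.80 for Peg10), and the male ones also with libraries rescaled to a common sum (-1.14 and -1.20).

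Among the genes lower in females, Grb10 (chr11:11930499-12037428), an adaptor that binds the insulin and IGF receptors, was at 12.9 and 8.58 FPKM in controls and at 2.83 and 1.76 in Snf5 CKO (log2 fold change -1.83, SE 0.27, adjusted p = 0.0013 by limma). Male Grb10 was at 4.09 and 2.99 against 2.55 and 1.14 FPKM (log2 fold change -0.71, adjusted p = 0.12), and passed as lower only without Snf5 CKO 1 (-1.07). Rasgrf1 (chr9:89909508-90026979), an exchange factor that activates Ras, was at 2.25 and 2.61 FPKM in female controls and at 0.0331 and 0.0384 in Snf5 CKO (log2 fold change -1.72, SE 0.18, adjusted p = 0.00039). The fold change with 1 FPKM added understates this difference, since the Snf5 CKO values are far below 1 FPKM; with 0.1 FPKM added it was -4.22. Without either control the female mean fell below 1 FPKM and the gene was not tested. In males Rasgrf1 had the same order, 1.26 and 2.12 FPKM in controls and 0.0846 and 0.135 in Snf5 CKO, but its mean was below 1 FPKM and it was not tested. Where an alternative took male Rasgrf1 above the filter it was called lower, with libraries rescaled to a common sum (log2 fold change -1.55, adjusted p = 8.3e-05), without Snf5 CKO 1 (-1.23, adjusted p = 0.0092) and without Snf5 CKO 2 (-1.29, adjusted p = 0.0031), but not with genes of any level in the test (-1.26, adjusted p = 0.054). Zdbf2, a zinc finger gene, was at 6.06 and 2.80 FPKM in female controls and at 1.27 and 0.591 in Snf5 CKO (log2 fold change -1.45, SE 0.33, adjusted p = 0.0089). Without female control 1 its log2 fold change fell just short of the limit (-1.0 after rounding) and the call was lost, and the adjusted p with genes of any level was 0.15, against 0.059 for Grb10. Male Zdbf2 was below the filter, at 1.09 and 1.19 FPKM in controls and 0.503 and 0.363 in Snf5 CKO.

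**Figure D2:**
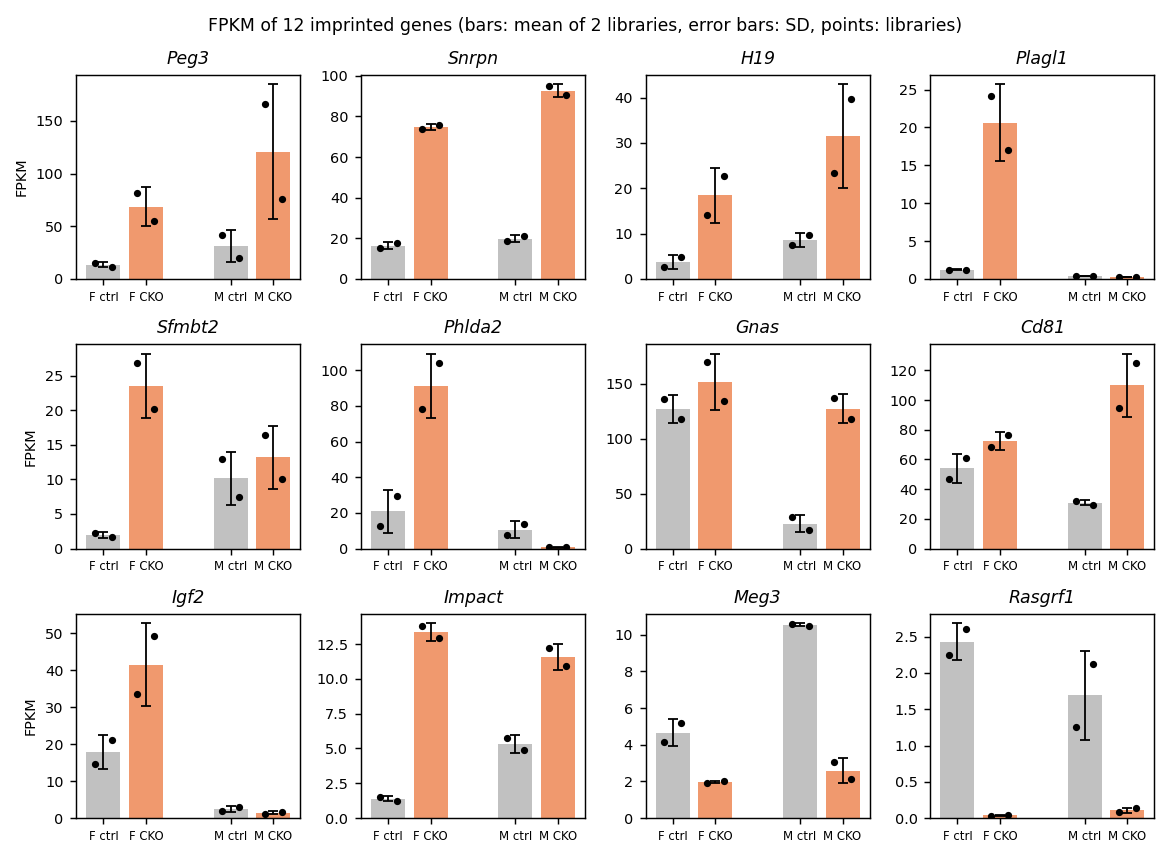
FPKM of 12 imprinted genes in female (F) and male (M) control and Snf5 CKO germ cells, each panel with its own y axis starting at 0. Bars are means of 2 libraries, error bars the SD and points the libraries. Peg3, Snrpn and H19 are higher in Snf5 CKO in both sexes, Phlda2 is higher in females and lower in males, and Plagl1 is raised in female Snf5 CKO alone among the 4 groups.

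In males, 28 of the 39 genes passed the filter and 11 were called changed, 5 higher and 6 lower in Snf5 CKO, where 14.4% of all tested genes were called higher and 17.4% lower. The median log2 fold change of the 28 was -0.33, against -0.07 over all tested genes, with a range from -2.64 to 2.48. It was 0.17 over the genes of at least 5 FPKM, -0.64 with libraries rescaled to a common sum, and -0.15 both without a filter and without control 1. The adjusted p was under 0.05 for 15 of the 28 genes and for 46.3% of all tested genes, whatever the size. The Snf5 CKO libraries lay on 1 side of both controls for 23 of the 28, and for 74.5% of all tested genes. The higher genes were Gnas, Snrpn, Peg3, Cd81 and H19, and the lower genes were Phlda2, Slc22a18, Meg3, Blcap, Dlk1 and Nnat. In these male Snf5 CKO libraries the Sertoli markers were higher as well, as given above.

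Gnas was at 28.5 and 17.0 FPKM in male controls and at 137 and 118 in male Snf5 CKO (log2 fold change 2.48, SE 0.28, adjusted p = 0.0034 by limma), a level near that of the female libraries, which were at 136 and 118 in controls and at 170.0 and 134 in Snf5 CKO (log2 fold change 0.25, adjusted p = 0.32). The male groups were far apart and the female groups overlapped. Cd81, a tetraspanin of the cell surface, was at 32.3 and 29.6 FPKM in male controls and at 94.9 and 125 in Snf5 CKO (log2 fold change 1.79, SE 0.20, adjusted p = 0.0035). Female Cd81 was at 47.1 and 61.1 in controls and 68.2 and 76.6 in Snf5 CKO, above both controls but without passing the test (log2 fold change 0.42, adjusted p = 0.098).

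Phlda2 (chr7:143501545-143503145), a pleckstrin homology protein that limits placental growth, was the only gene of the 39 called in opposite directions in the sexes. It was at 12.4 and 29.5 FPKM in female controls and at 78.5 and 104 in female Snf5 CKO (log2 fold change 2.18, SE 0.38, adjusted p = 0.0026 by limma). In males it was at 7.35 and 14.0 FPKM in controls and at 0.617 and 0.992 in Snf5 CKO (log2 fold change -2.64, SE 0.33, adjusted p = 0.0043). The controls of each sex differed widely, yet the groups did not overlap in either sex. With genes of any level in the test, the adjusted p was 0.1 in females and 0.05 in males, and neither call held. Slc22a18, a membrane transporter beside Phlda2 in the Kcnq1 cluster, fell in males from 4.90 and 6.61 FPKM to 0.486 and 0.896 (log2 fold change -2.0, SE 0.23, adjusted p = 0.0036). Female Slc22a18 was at 3.89 and 8.38 in controls and 3.11 and 2.56 in Snf5 CKO, where the log2 fold change was -0.82 with an adjusted p of 0.06, and was -1.29 with an adjusted p of 0.0011 without control 1.

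The other genes of the Kcnq1 cluster showed no shared direction. Cdkn1c, the cell cycle inhibitor p57, overlapped between the groups in both sexes: 47.5 and 52.5 against 52.4 and 45.2 FPKM in females (log2 fold change -0.04, SE 0.17) and 29.7 and 32.0 against 27.8 and 34.6 in males (0.01, SE 0.19). Ascl2, a transcription factor of the trophoblast, was at 1.44 and 2.03 against 1.10 and 1.17 FPKM in females (adjusted p = 0.17 by limma) and at 3.93 and 4.97 against 4.36 and 5.97 in males (adjusted p = 0.58). Tspan32, a tetraspanin of blood cells, is listed at 0 in both female controls and was at 1.46 and 1.37 FPKM in female Snf5 CKO. Its female mean was below the filter, and it passed as higher where it was tested: with genes of any level (adjusted p = 0.014 by limma), with a common sum (0.00012) and with the loci of a gene summed (0.0021). In males it was at 0.682 and 0.282 FPKM against 1.15 and 2.11 (log2 fold change 0.82, adjusted p = 0.053); without control 1, without Snf5 CKO 1 and with the loci of a gene summed it passed as higher (1.01, 1.08 and 1.13). Kcnq1, a potassium channel, and Kcnq1ot1, the antisense RNA that silences the cluster on the paternal copy, were at most at 0.851 FPKM. Kcnq1 was at 0.837 and 0.851 FPKM in female controls and 0.837 and 0.403 in Snf5 CKO, and at 0.0591 and 0.078 against 0.049 and 0.0301 in males. Kcnq1ot1 lay at 0.666 and 0.701 FPKM in female controls and 0.188 and 0.275 in Snf5 CKO, and in the opposite order in males, 0.0309 and 0.0515 against 0.283 and 0.188. The library kit does not keep the strand, so fragments of this sense and antisense pair cannot be told apart.

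The control region of the Dlk1-Meg3 cluster takes its methylation in the male germ line. Of this cluster, Dlk1, Meg3, Rian and Mirg are in the set followed here. Only Dlk1 and Meg3 were tested, and both had negative log2 fold changes in both sexes. Dio3, looked up outside the set, went the other way in males, from 1.41 and 1.07 FPKM to 2.62 and 2.62. Its male log2 fold change was 0.70 (adjusted p = 0.029 by limma), below the size of a call. In females Dio3 was at 0.566 and 0.776 against 0.281 and 0.187 FPKM and was not tested. Dlk1 (chr12:109452485-109463336), a transmembrane relative of Notch ligands, was at 3.30 and 3.42 FPKM in female controls and 0.785 and 0.865 in Snf5 CKO (log2 fold change -1.26, SE 0.18, adjusted p = 0.0013 by limma). The male values were almost the same, 3.30 and 3.96 against 0.807 and 0.807 (log2 fold change -1.35, SE 0.18, adjusted p = 0.0047). Meg3, a non-coding RNA of the maternal copy that shares its row with miR-770 and miR-1906, fell in males from 10.6 and 10.5 FPKM to 3.06 and 2.12 (log2 fold change -1.70, SE 0.21, adjusted p = 0.0043). In females Meg3 went from 4.15 and 5.17 to 1.93 and 2.01 FPKM, which passed the adjusted p (0.0062) at a log2 fold change of -0.92 (SE 0.20) and reached the size of a call without control 1 (-1.05) and with 0.1 FPKM added in place of 1 (-1.19). Rian and Mirg, the non-coding RNAs further along the same transcription unit, were not tested. In males Rian was at 1.14 and 1.09 FPKM against 0.573 and 0.294, and Mirg at 0.759 and 0.971 against 0.0661 and 0.213, without overlap. In females Rian was at 0.131 and 0.331 FPKM against 0.542 and 0.192, and Mirg at 0.0824 and 0 against 0.066 and 0.0334, and both overlapped.

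Nnat, a proteolipid of the endoplasmic reticulum, lies inside an intron of Blcap, a small protein linked to apoptosis, and both fell in males. Blcap went from 47.1 and 44.8 FPKM to 14.9 and 15.4 (log2 fold change -1.54, SE 0.16, adjusted p = 0.0029 by limma). Nnat went from 14.3 and 15 to 5.22 and 8.54 (log2 fold change -1.02, SE 0.26, adjusted p = 0.029). The call of Nnat was at the edge: it was lost without male control 1 (adjusted p = 0.077), without male control 2 (0.067), without male Snf5 CKO 1 (0.11), with genes of any level in the test (0.12) and with median-of-ratios rescaling (log2 fold change -0.87). In females Blcap was at 36.0 and 32.8 against 23.9 and 21.7 FPKM (log2 fold change -0.57, adjusted p = 0.022), and Nnat at 0.723 and 2.16 against 2.53 and 2.21 (log2 fold change 0.53, adjusted p = 0.17). Fragments of the pair cannot be split by strand.

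**Figure D3:**
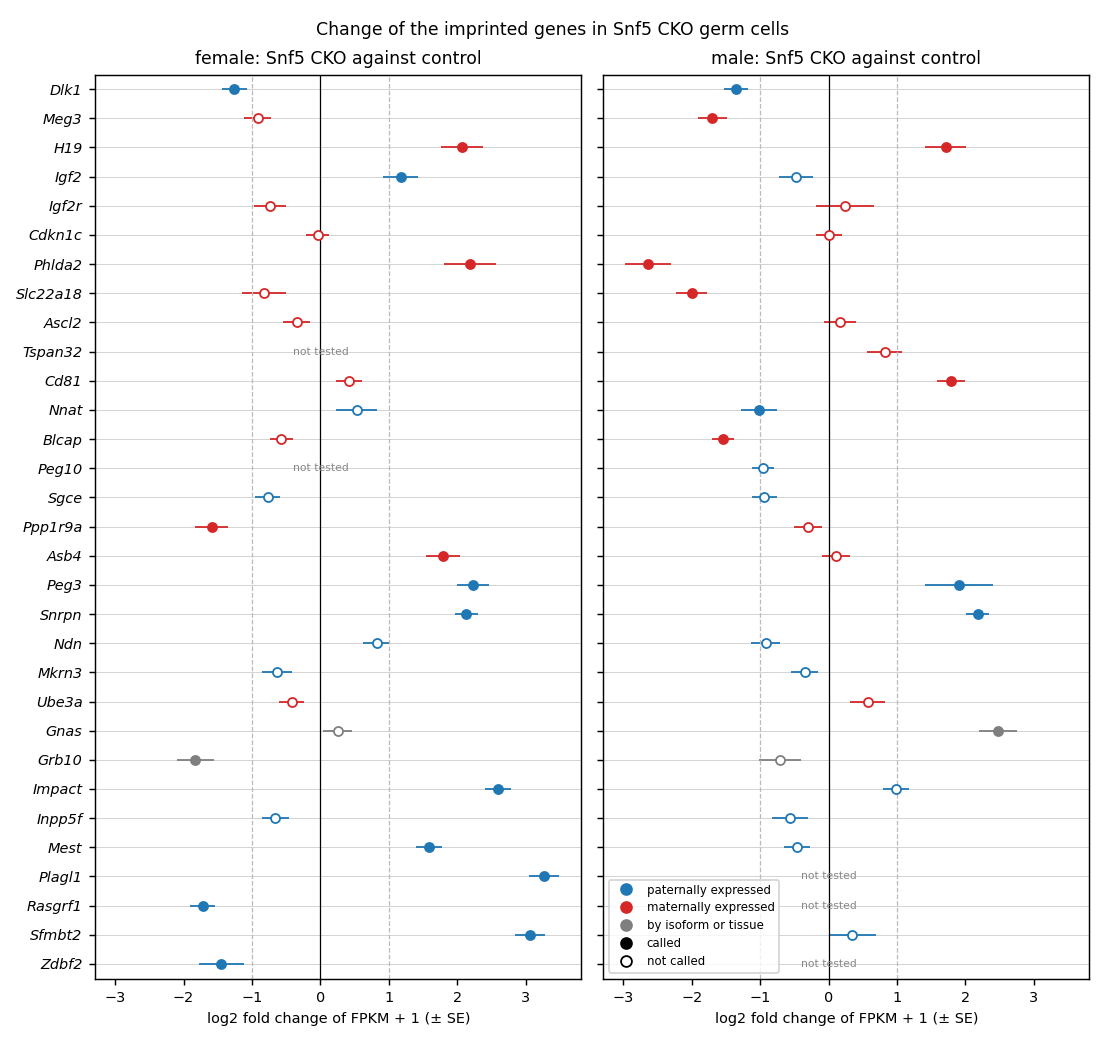
Log2 fold change of FPKM + 1, Snf5 CKO against control, for every imprinted gene tested in at least 1 sex, with female (left) and male (right) panels and error bars of 1 SE from limma. Colours give the class by expressed copy, filled points are called genes and dashed lines mark a log2 fold change of 1 in either direction. Phlda2 lies at 2.18 in females and -2.64 in males, while Snrpn lies at 2.13 and 2.18.

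Of the Prader-Willi cluster, Snrpn, Ndn, Mkrn3, Ube3a and Magel2 are in the set followed here, and among them only Snrpn was called. Atp10a, looked up outside the set, was called higher in females. It was at 3.97 and 4.65 FPKM in female controls and 16.0 and 11.6 in Snf5 CKO (log2 fold change 1.47, adjusted p = 0.0014 by limma). In males Atp10a overlapped, at 16.6 and 9.5 against 12.6 and 7.12 FPKM (log2 fold change -0.37, adjusted p = 0.45). Ndn, which encodes the growth suppressor necdin, was at 6.92 and 9.46 FPKM in female controls and 15 and 15.3 in Snf5 CKO (log2 fold change 0.82, SE 0.20, adjusted p = 0.012 by limma), and the reverse in males, 35.4 and 42.5 against 17.6 and 22.7 (log2 fold change -0.92, SE 0.21, adjusted p = 0.02). Both differences passed the adjusted p below the size of a call, with Snf5 CKO above both controls in females and below both in males. The size of a call was reached in females without control 2 (1.03), and in males without control 1 (-1.05), without Snf5 CKO 2 (-1.09) and with a common sum (-1.11). Mkrn3, a RING finger protein, was at 4.69 and 4.51 against 2.10 and 3.20 FPKM in females (log2 fold change -0.63, adjusted p = 0.041) and at 2.89 and 3.38 against 2.58 and 1.93 in males (-0.35, adjusted p = 0.21). Ube3a, the ubiquitin ligase of Angelman syndrome, was at 45.4 and 39.9 against 34.3 and 28.8 FPKM in females (log2 fold change -0.42, adjusted p = 0.077) and at 21.7 and 17.5 against 36.0 and 24.0 in males (0.57, adjusted p = 0.13). Magel2, a relative of necdin, was at 0.16 and 0.223 FPKM in female controls against 0.827 and 0.696 in Snf5 CKO, and at 0.178 and 0.0792 against 0.348 and 0.203 in males, above both controls in each sex. The genes of this cluster thus differed in direction within a sex.

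In the Peg3 cluster, Usp29, a deubiquitinase gene that starts beside Peg3, was at 0.0424 and 0.0423 FPKM in female controls and 0.342 and 0.247 in Snf5 CKO, and at 0.355 and 0.328 against 0.689 and 0.507 in males. It thus had the direction of Peg3 in both sexes at levels too low for the test. Zim1, a zinc finger gene of the maternal copy, was at 0.27 and 0.229 FPKM against 0.324 and 0.262 in females and at 0.299 and 0.189 against 0.341 and 0.0601 in males, and overlapped in both sexes. Igf2r, the receptor that clears IGF2, was at 38.0 and 29.3 against 23.7 and 16.3 FPKM in females (log2 fold change -0.74, SE 0.23, adjusted p = 0.031 by limma) and overlapped in males, 11.3 and 5.99 against 14.1 and 6.96. Its antisense partner Airn was at 0 and 0.278 FPKM against 0.0926 and 0.255 in females, and in males is listed at 0 in both controls and was at 0.255 and 0.387 in Snf5 CKO. Inpp5f, a phosphoinositide phosphatase, was at 16.9 and 15.4 against 11.1 and 8.63 FPKM in females (log2 fold change -0.66, adjusted p = 0.023) and at 18.7 and 13.1 against 12.1 and 8.80 in males (-0.56, adjusted p = 0.14).

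By class, 15 of 20 paternally expressed genes were tested in females, and 7 were called higher and 3 lower, with a median log2 fold change of 0.82. Of the 17 maternally expressed genes 12 were tested, 3 were called higher and 1 lower, and the median was -0.39. The female background was 17.3% higher and 21.6% lower, with an all-gene median of -0.13. In males, 13 genes of each class were tested. Of the paternally expressed ones 2 were higher and 2 lower with a median of -0.48, and of the maternally expressed ones 2 were higher and 4 lower with a median of 0.11. The male background was 14.4% higher and 17.4% lower, with an all-gene median of -0.07. The order of the class medians was thus opposite in the sexes, but the 2 classes spanned largely the same range: from -1.72 to 3.27 and from -1.59 to 2.18 in females, and from -1.35 to 2.18 and from -2.64 to 1.79 in males. The female medians were 0.43 (paternally expressed) and -0.04 (maternally expressed) without a filter and 2.13 and -0.04 over the genes of at least 5 FPKM, where the male paternal median was -0.05. The male maternal median changed sign under other settings (-0.12 with libraries rescaled to a common sum, -0.04 without a filter, -0.02 without Snf5 CKO 1 and -0.08 without Snf5 CKO 2), and no test between classes was made.

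**Figure D4:**
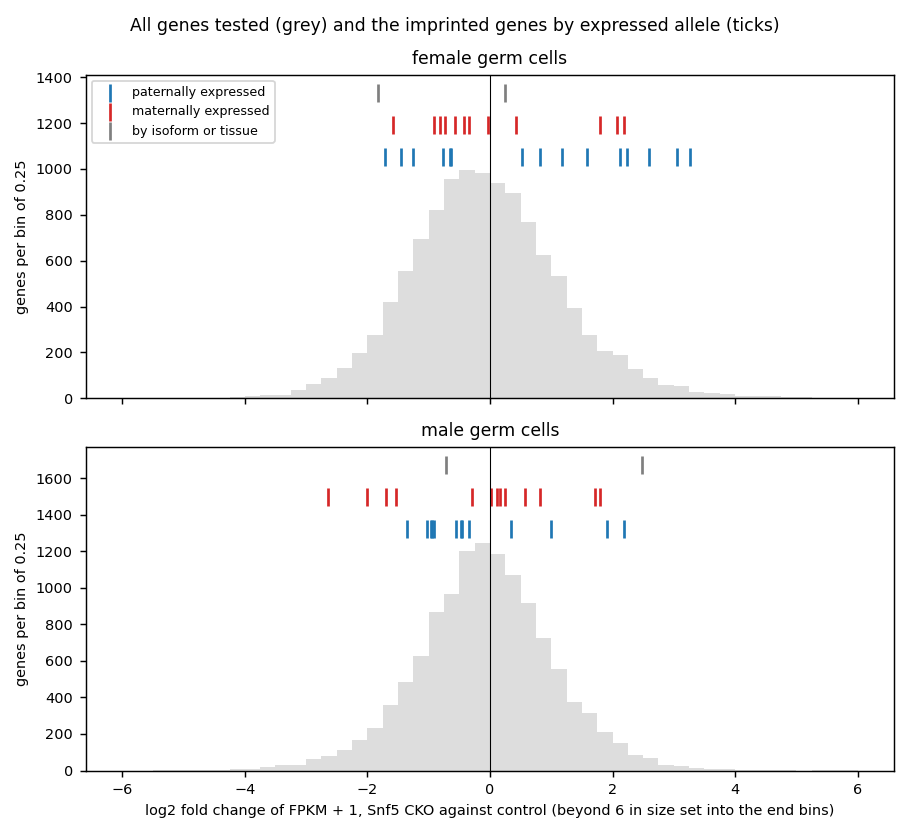
Log2 fold change of all tested genes (grey bars, number of genes per bin of 0.25) and of the tested imprinted genes by class (coloured ticks above the bars) in female (top) and male (bottom) germ cells; changes beyond 6 in size are placed in the end bins. The ticks of paternally and maternally expressed genes interleave in both sexes and lie within the spread of all genes.

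In the set followed here, 7 genes have a control region methylated on the paternal copy (H19, Igf2, Dlk1, Meg3, Rian, Mirg and Rasgrf1). Of these, 5 were tested in females, with 2 higher and 2 lower, and 4 in males, with 1 higher and 2 lower. Over all tested genes 38.9% were called in females and 31.8% in males. The median log2 fold change was -0.92 in each sex, against all-gene medians of -0.13 and -0.07. H19, Dlk1, Meg3 and Rasgrf1 had the same direction in both sexes, and Igf2 did not. The Snf5 CKO libraries of all 7 lay outside the range of the controls in males, and 5 of the 7 in females, where Rian and Mirg overlapped; of all tested genes 74.5% did so in males and 81.6% in females.

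Of the 26 genes tested in both sexes, 5 were called in both: Peg3, Snrpn and H19 higher, Dlk1 lower, and Phlda2 in opposite directions. Over all 10472 genes tested in both sexes, 1462 were called in both, 689 higher, 560 lower and 213 (14.6%) in opposite directions. Both Snf5 CKO libraries lay beyond both controls in each sex, in opposite directions, for 6 of the 26 genes and for 20.7% of the 10472. Across the 26 genes the female and male log2 fold changes had a Pearson correlation of 0.395, and across all 10472 genes it was 0.395 as well. Genes are not independent replicates, and libraries of the same number may share a batch across the sexes, so these are descriptions only. Of all 39 genes, another 16 were called in 1 sex only, among them Plagl1, Rasgrf1 and Zdbf2, which were not tested in males. Over all tested genes 38.9% were called in females and 31.8% in males, shares that include genes called in both sexes. The share of all genes called in 1 sex only was not computed, so the 16 has no background beside it. For these 16 genes the difference between the sexes was not tested, since the sexes were quantified apart.

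**Figure D5:**
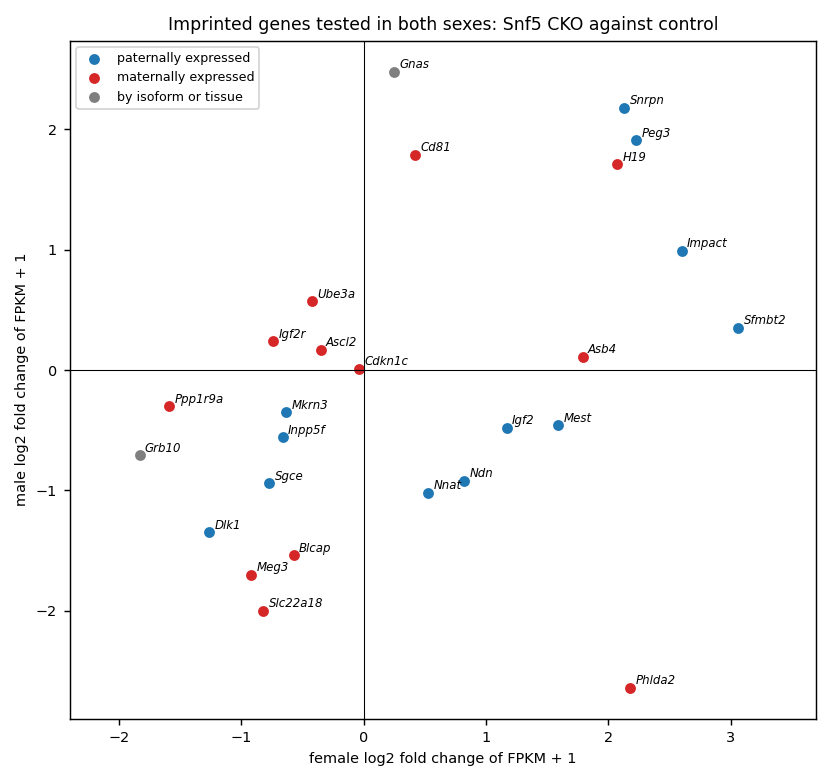
Female (x axis) against male (y axis) log2 fold change of FPKM + 1, Snf5 CKO against control, for the 26 imprinted genes tested in both sexes, coloured by class. Peg3, Snrpn and H19 lie at the upper right, Dlk1 at the lower left, and Phlda2 at the lower right, apart from the other genes.

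The enzymes and proteins that write, erase and protect imprints were examined as a list of 16 genes. In females 14 were tested, 5 called higher and 1 lower, beside 17.3% of all tested genes called higher and 21.6% lower. Dppa3, which is a marker of PGCs and protects maternal methylation in the zygote, was at 41.2 and 61.3 FPKM in controls and at 1406 and 1632 in Snf5 CKO (log2 fold change 4.89, SE 0.26, adjusted p = 9.7e-05 by limma). The methylcytosine oxidase Tet1, which takes part in the erasure of imprints, was at 0.799 and 0.647 against 10.7 and 7.98 FPKM (log2 fold change 2.57). The de novo methyltransferases Dnmt3b (2.12) and Dnmt3a (1.30) and the corepressor Trim28 (1.13), the partner of ZFP57, were also higher, and Tet2 (-1.10) was lower.

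In males 15 of the 16 were tested, 4 called higher and 4 lower, beside 14.4% and 17.4% of all tested genes. Dnmt3l, the cofactor that sets paternal imprints, was at 102 and 108 FPKM in controls and at 1.54 and 1.95 in Snf5 CKO (log2 fold change -5.27, SE 0.18, adjusted p = 0.0021 by limma), and Dnmt3a went from 191 and 165 FPKM to 35.2 and 26.9 (log2 fold change -2.49). The histone demethylase Kdm1b, needed for maternal imprints in oocytes, went from 59.6 and 59.1 to 9.86 and 8.02 FPKM (-2.61), and Ctcfl, the testis relative of the insulator protein CTCF, from 2.98 and 2.74 to 0.329 and 0.617 (-1.40). Higher were Dnmt3b (2.10), Tet1 (1.82), Uhrf1 (1.38), which brings the maintenance methyltransferase to replicating DNA, and Ctcf (1.04). Tet1 and Dnmt3b were called higher in both sexes, and Dnmt3a was called higher in females and lower in males. Zfp57 had at most 1.16 FPKM in any library and was tested in neither sex.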

How the data were processed

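Germ cells were sorted by Oct4-EGFP from E15.5 gonads, and cDNA was amplified with SMART-Seq v4 and made into Nextera XT libraries, which do not keep the strand. The authors mapped the reads to mm10 and quantified each sex in a run of its own; the submitters' processing notes name TopHat2 2.2.1 and Cuffdiff 2.1.1, whereas the methods of the study give other version numbers for Tophat and Cufflinks. The deposited values are FPKM, 1 for each locus in each library. The 16 columns of confidence bounds and the loci without a gene name were left out, and a gene with several loci was represented by the one of highest mean FPKM. The tables used here hold no counts, so the depth is unknown and no counting interval is given. From the steps between values under 0.1 FPKM, the depth relative to control 1 of the same sex was estimated. The best values were 1.90 for control 2, 1.25 for Snf5 CKO 1 and 2.43 for Snf5 CKO 2 in females, and 0.947, 1.20 and 1.47 in males. The next best values, in the same order, were 0.945, 0.624 and 1.22 in females and 1.90, 2.41 and 0.734 in males, so these depths are uncertain.

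Libraries were grouped by their titles. Genes of mean 1 FPKM or more were fitted within a sex with limma 3.58.1 in R 4.3.3 on log2(FPKM + 1) (lmFit, eBayes with trend), and p-values were adjusted by Benjamini-Hochberg over all tested genes. With 2 libraries against 2 an exact permutation test cannot go below p = 0.333, so no such test is given. The script was tested on simulated data. Replicate 1 and replicate 2 carry raw file names of different styles in the labels, in all groups, and the male columns call them experiments. Over genes, the difference of replicate 2 from replicate 1 correlated between controls and Snf5 CKO with r = 0.5 (females) and 0.607 (males), with 2 pairs in each sex.

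The alternatives were a pseudocount of 0.1, no filter on low values, a mean of at least 5 FPKM, libraries rescaled to a common sum or by the median of ratios, summed loci, loci of status OK, eBayes without trend, the replicate block, and each library left out. The 39 genes, their classes and the other lists were chosen with earlier results of these data known. A gene was named with the value of every library where it was called in either sex, had a mean of at least 20 FPKM in any group, or neighboured such a gene; regulators of imprints were named where called. Further imprinted genes were to be named at a log2 fold change of at least 3 in size, which none reached. Sequences come from RefSeq tables of GRCm38.p6, and matplotlib 3.10.9 (Python 3.11.15) drew the figures.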

Additional observations from a re-analysis of the deposited data

Results flagged for a closer look

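Of the 26 genes tested in both sexes, 6 had both Snf5 CKO libraries beyond both controls in each sex, in opposite directions; of all 10472 genes tested in both sexes, 2167 (20.7%) did. The log2 fold changes were 2.18 in females and -2.64 in males for Phlda2, 1.59 and -0.46 for Mest, 1.17 and -0.48 for Igf2, 0.82 and -0.92 for Ndn, 0.53 and -1.02 for Nnat, and -0.42 and 0.57 for Ube3a. Only for Phlda2 were both differences called, and for Ube3a neither passed the adjusted p. The difference between the sexes was not tested for any of them, because the tables were quantified separately.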

How the results depend on the processing

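No called gene of the 39 changed direction under any alternative. Without a filter the female lower count was 2 and the male higher count 3, and the filter at 5 FPKM, which tests fewer genes, gave a female lower count of 1. The common sum gave 10 male genes lower, and moved the all-gene median by -0.19 and the share of higher among called genes in males from 45.2% to 33.8%; the median of ratios moved the all-gene median by 0.15 in both sexes, with shares of 52.8% (44.5% before) in females and 54.5% in males. The median log2 fold change of all imprinted genes was 1.0 (5 FPKM), 0.13 (median of ratios) and 0.11 (summed loci) in females, and -0.45 (pseudocount), -0.15 (no filter), 0.17 (5 FPKM) and -0.64 (common sum) in males. The paternally expressed median was 0.43 (no filter) and 2.13 (5 FPKM) in females, and -0.60 (pseudocount), -0.40 (no filter), -0.05 (5 FPKM), -0.74 (common sum) and -0.38 (median of ratios) in males. The maternally expressed median was -0.04 (no filter and 5 FPKM) and -0.26 (median of ratios) in females, and -0.04 (no filter), -0.12 (common sum) and 0.25 (median of ratios) in males. Calls of further imprinted genes in males were 8 with the pseudocount of 0.1 and 2 at 5 FPKM, against 5. The cause of these shifts was not tested.

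Leaving out each library in turn gave 4 to 5 lower and 9 to 11 higher genes in females and 5 to 8 lower and 5 to 7 higher in males. The medians ran from -0.14 to 0.09 (all), 0.77 to 1.22 (paternally expressed) and -0.43 to -0.27 (maternally expressed) in females, and from -0.38 to -0.15, -0.62 to -0.40 and -0.08 to 0.06 in males. Regulators gave 5 to 6 calls in females and 7 to 9 in males, and further imprinted genes 9 to 10 and 5 to 8, the 8 without male Snf5 CKO 2. The replicate block gave 5 lower and 10 higher in females and 6 lower and 5 higher in males, and changed no call of the 39 genes. Depth is unknown, so genes below 1 FPKM are given as values only.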

Other observations

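A further 39 imprinted genes outside the described set were looked up, and 38 had a row in the tables. In females 19 were tested, 8 called higher and 1 lower, with a median log2 fold change of 0.38, where 17.3% of all tested genes were higher and 21.6% lower. In males 23 were tested, 1 called higher and 4 lower, with a median of -0.25, where 14.4% of all tested genes were higher and 17.4% lower. The male higher gene is Snurf, which shares the row of Snrpn, and Snurf is also among the 8 female ones. The following genes were chosen after their values were seen. Slc38a4, an amino acid transporter, was at 2.0 and 1.84 FPKM in female controls and at 11.1 and 6.31 in Snf5 CKO (log2 fold change 1.69, SE 0.27, adjusted p = 0.0019 by limma), and at 7.82 and 12.3 against 1.02 and 0.999 in males (log2 fold change -2.43, SE 0.26, adjusted p = 0.003). The direction was thus opposite in the sexes, as for Phlda2, and the difference was not tested. Ins2, an insulin gene that lies beside Igf2, was at 1.94 and 0.811 FPKM in female controls and at 11.6 and 16.7 in Snf5 CKO (log2 fold change 2.70, SE 0.30, adjusted p = 0.00042), and had at most 0.261 FPKM in males. Gab1, an adaptor of receptor tyrosine kinases, went from 2.05 and 1.63 to 10.8 and 8.09 FPKM in females (log2 fold change 1.87, SE 0.22, adjusted p = 0.00053). Lower in males were also Th, the rate-limiting enzyme of catecholamine synthesis (-1.69), Qpct, which cyclises the ends of peptides (-1.27), and Zrsr1, a relative of a splicing factor (-1.12).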
